A study of Mus musculus with 24 samples.

Results

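The genes described here are 9 markers of homeostatic microglia, namely P2ry12, P2ry13, Gpr34, Tmem119, Cx3cr1, Csf1r, Siglech, Olfml3 and Selplg. They were picked by symbol from a count table of 43346 genes, and all 9 passed the filter on low counts that left 19678 genes for testing. RNA of whole cortex from 24 C57BL/6 mice was sequenced in bulk, with 6 mice in each of 4 groups. WT_control and WT_induced mice had the genotype TREM2-WT+/+; Cx3cr1CreER/+, and R47H_control and R47H_induced mice had TREM2-R47H+/+; Cx3cr1CreER/+. The induced groups received tamoxifen to switch on TREM2, a lipid-sensing receptor, in microglia, and the control groups received corn oil. R47H is a TREM2 variant known as a risk factor for Alzheimer's disease.

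Every mouse, controls included, thus carried CreER, a tamoxifen-dependent Cre recombinase, in 1 copy of Cx3cr1, which is itself 1 of the 9 genes. The sources used here do not give how reads of that modified copy were counted. Tamoxifen and TREM2 induction differ together, and the lines differ in their construct and in whatever else separates them, so neither pair can be told apart. The series text puts 3 males in each group, without linking sex to libraries, and the labels give no age. In RNA of whole cortex, fewer microglia and less RNA per microglial cell cannot be told apart.

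Microglia are the resident macrophages of the brain. In the healthy brain they keep a characteristic set of genes switched on, under the influence of TGF-beta, of CSF1 receptor ligands and of the transcription factor PU.1. Many of these genes encode surface receptors with which the cells sense nucleotides, lipids, chemokines and glycans, and their transcripts commonly decline when microglia take on an inflammatory or disease-associated state.

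Libraries held between 27933505 and 56082520 counts. The excitatory neuron markers of the cortex summed to between 3888 and 4842 CPM (the counts-per-million scale, relative to the scaled library total), and pan-microglial markers such as C1qa and Ctss were detected in every group. Yam1, AY036118 and Lars2, 3 genes that resemble rRNA, took a mean of 15.9% of the counts in WT_control libraries and 18.3% in WT_induced ones, against 20.3% for R47H_control and 17.0% for R47H_induced. In WT_induced, replicate 6 differed widely from the other 5 libraries. Its 18 pan-microglial markers summed to 423 CPM, against 170 to 202 in the others, and its 11 blood leukocyte markers to 29.8 CPM, against 1.88 to 3.62. The 9 homeostatic genes summed to 261 CPM in that library and to 180 to 201 in the other 5. Its 11 border-associated macrophage markers summed to 23.4 CPM, below the 25.1 to 32.7 of the others. Where leaving it out turned a direction or moved a count below by over 1.5 times, the value without it is also given. The share of all genes is not given for fits with 1 library left out, so counts from those fits have no share beside them.

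Promoter sequence is shown for 4 genes that were lower in induced than in control R47H cortex at an unadjusted p below 0.05 in either of the tests described below. Each run holds 250 bases before and 50 bases after the start of transcription in RefSeq (GRCm38.p6), written 5′ to 3′ on the gene's strand, and capitals mark GAGGAA or its reverse complement, the core of many PU.1 sites. P2ry12 and P2ry13 are neighbours on the minus strand of chromosome 3, at chr3:59262936-59263235 and chr3:59210833-59211132 for the windows shown. The Cx3cr1 window is chr9:120068247-120068546 on the minus strand, and the Siglech window is chr7:55767934-55768233 on the plus strand.
P2ry12: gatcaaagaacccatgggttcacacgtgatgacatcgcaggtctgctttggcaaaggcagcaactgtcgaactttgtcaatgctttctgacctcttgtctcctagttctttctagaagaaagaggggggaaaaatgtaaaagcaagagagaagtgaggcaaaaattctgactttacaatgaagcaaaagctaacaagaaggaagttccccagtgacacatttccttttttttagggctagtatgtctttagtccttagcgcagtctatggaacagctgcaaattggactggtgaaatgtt
P2ry13: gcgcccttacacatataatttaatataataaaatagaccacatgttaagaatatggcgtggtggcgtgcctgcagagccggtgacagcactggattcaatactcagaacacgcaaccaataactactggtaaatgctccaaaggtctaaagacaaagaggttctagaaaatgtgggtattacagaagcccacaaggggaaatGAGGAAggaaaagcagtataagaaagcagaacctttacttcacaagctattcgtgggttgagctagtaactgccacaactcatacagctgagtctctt
Cx3cr1: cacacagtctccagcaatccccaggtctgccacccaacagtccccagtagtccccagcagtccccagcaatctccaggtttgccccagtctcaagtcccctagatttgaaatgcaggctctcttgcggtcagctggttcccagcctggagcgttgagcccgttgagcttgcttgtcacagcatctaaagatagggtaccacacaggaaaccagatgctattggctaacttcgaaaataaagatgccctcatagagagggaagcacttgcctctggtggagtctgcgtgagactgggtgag
Siglech: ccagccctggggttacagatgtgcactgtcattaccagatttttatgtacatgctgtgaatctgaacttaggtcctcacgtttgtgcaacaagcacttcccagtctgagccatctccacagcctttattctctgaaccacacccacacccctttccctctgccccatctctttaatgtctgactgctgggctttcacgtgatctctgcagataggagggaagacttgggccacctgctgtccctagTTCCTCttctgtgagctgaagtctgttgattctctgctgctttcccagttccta
Both strands were searched. GAGGAA was found on the gene's strand in the window of P2ry13, starting 48 bases before the start. On the opposite strand it was found in that of Siglech, whose match begins 4 bases before the start. Those of P2ry12 and Cx3cr1 did not hold these letters. With Olfml3, 5 members had a RefSeq window, and 2 of 5 held GAGGAA, against 28.3% of 32851 windows of the same length. CAGACA, a SMAD-type motif, was in 1 of the 5 (Siglech) against 21.0% of all windows. The interferon-stimulated response element, searched as a pair of GAAA runs with 2 free bases between them, was in 0 of the 5 against 3.44%.

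Levels of different genes were compared per kilobase of the exon length given in the table. Csf1r, the receptor for the growth factors CSF1 and IL-34 on which microglia depend, was highest at 16.1 ± 1.33 CPM per kilobase (mean and SD of 24 libraries). P2ry12, an ADP receptor that steers microglial processes to injury, followed at 13.1 ± 1.38. Tmem119, a membrane protein used to mark microglia, was at 6.75 ± 1.02, and Selplg, the P-selectin ligand, at 6.16 ± 0.813. Cx3cr1, the receptor for the neuronal chemokine fractalkine, was at 4.95 ± 0.519 and the lysophosphatidylserine receptor Gpr34 at 4.48 ± 0.799. P2ry13, a further ADP receptor, was at 3.59 ± 0.428, the sialic acid-binding lectin Siglech at 3.27 ± 0.545 and the secreted protein gene Olfml3 at 2.38 ± 0.742. The neighbouring pairs Tmem119 and Selplg, Cx3cr1 and Gpr34, and P2ry13 and Siglech differed by less than the larger SD of the pair. Between mice of the same group, the coefficient of variation of CPM was 7.97% for P2ry12 and 8.27% for Csf1r, and 31.1% for Olfml3, whose counts ran from 79 to 779.

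**Figure D1:**
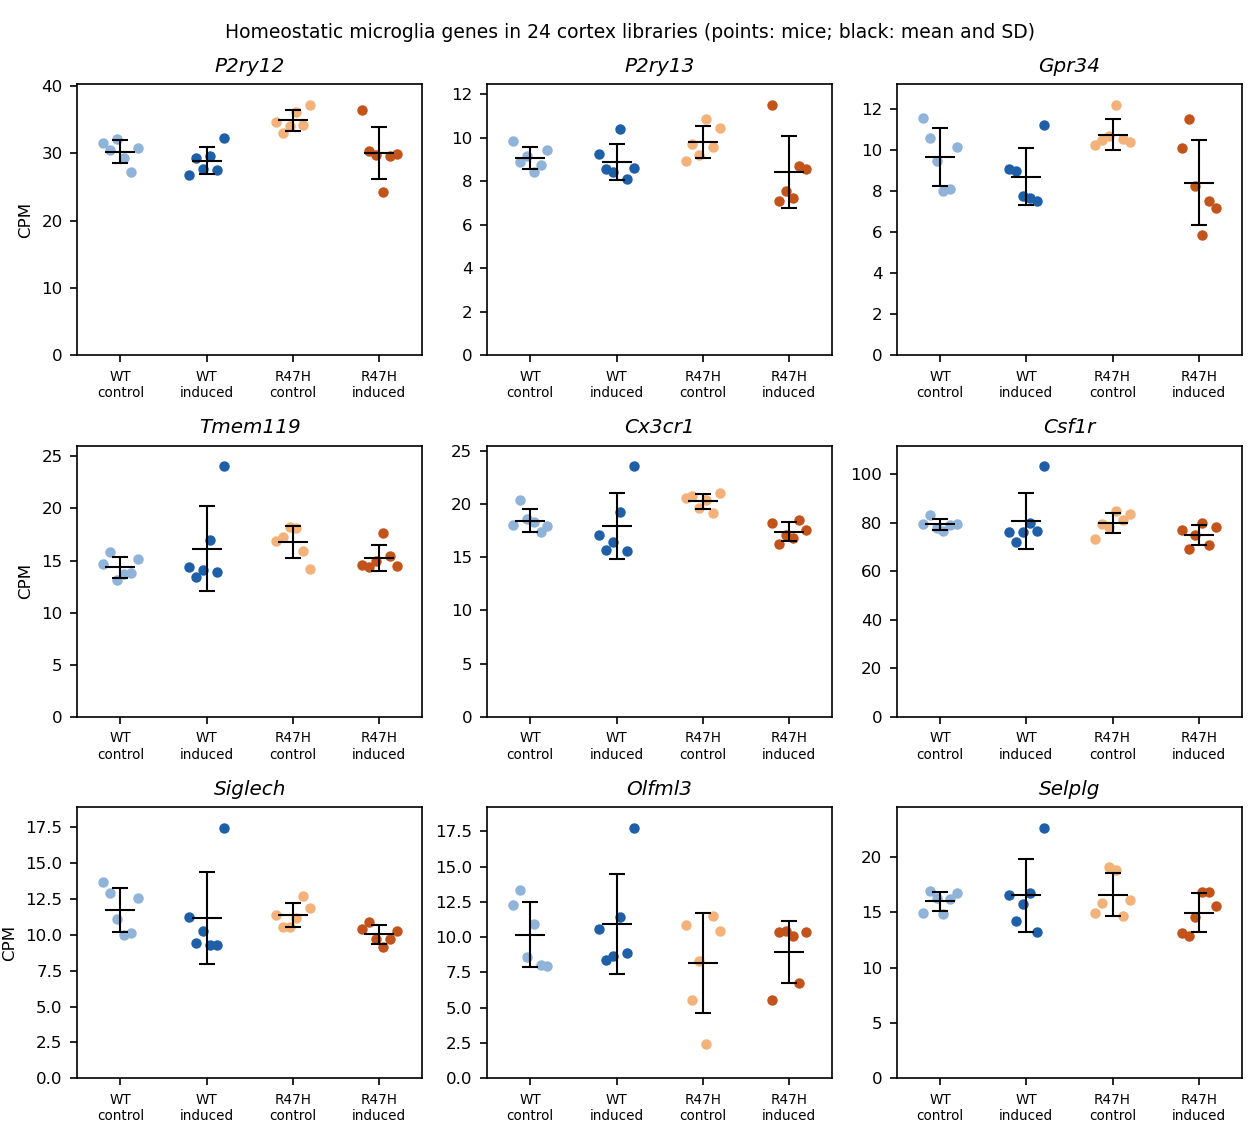
Levels in CPM (y axis, from 0) of the 9 homeostatic genes in each of 24 libraries, by group, with the group mean and SD in black. Cx3cr1 does not overlap between R47H_control (19.1 to 21.1 CPM) and R47H_induced (16.2 to 18.5 CPM), and WT_induced replicate 6 is the highest point of its group for 8 of the genes, P2ry13 excepted.

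Over all 19678 genes, edgeR's quasi-likelihood test with Benjamini-Hochberg adjustment called 0 of the 9 genes in any of 7 comparisons at an adjusted p below 0.05. The share of all genes called was 0% for induction in WT mice, 0% for induction in R47H mice, 0% for the difference of these inductions and 0% for induction averaged over the lines. DESeq2 called 10, 4, 3 and 4 genes in these comparisons, none of them among the 9, and limma-voom called 0. In edgeR the share was 5.74% for R47H_control against WT_control, 5.8% for R47H_induced against WT_induced and 13.8% for the lines averaged over treatments. Fold changes are log2 values of the first group named minus the second, followed by the fit's standard error (SE). Each gene was also compared alone by a two-sided exact permutation test over every assignment of 6 libraries against 6, whose smallest possible p is 0.00216. These 36 tests, 9 genes in 4 pairwise comparisons, are not adjusted.

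In R47H mice, 8 of the 9 homeostatic genes had lower mean levels in induced than in control cortex, Olfml3 being the exception. Their median log2 difference was -0.18, against 0.00 for all tested genes, of which 47.3% were negative. At an unadjusted p below 0.05 edgeR found 4 of the 9, P2ry12, P2ry13, Gpr34 and Cx3cr1, all lower, against 5.11% of all genes. The edgeR count was 7 of 9 without WT_induced replicate 6, a library outside this comparison that enters the shared estimate of spread. The share of all genes in that fit is not given here. In a fit on the 12 libraries compared the count was also 7 of 9, and 992 of 18835 genes had an unadjusted p below 0.05. The exact tests gave 4, P2ry12, Gpr34, Cx3cr1 and Siglech. They were run on the 9 genes only, so no share of all genes stands beside that count.

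P2ry12 (chromosome 3, 59216271 to 59262831, mm10, minus strand, within the gene Med12l) ran from 33.03 to 37.27 CPM in R47H_control, with a median of 34.5. In R47H_induced it ran from 24.24 to 36.47 CPM, with a median of 29.9. In 5 of the 6 induced libraries it was below every control library, and R47H_induced replicate 1 lay among the controls. The log2 difference was -0.22 (SE 0.06, edgeR p = 0.00179, adjusted p = 0.791, exact permutation p = 0.0130). Without R47H_induced replicate 1 it was -0.28 (SE 0.06), with an edgeR adjusted p of 0.492.

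P2ry13 (chromosome 3, 59207896 to 59210882, also within Med12l) ran from 8.94 to 10.9 CPM in R47H_control (median 9.64) and from 7.09 to 11.5 CPM in R47H_induced (median 8.08). The same induced library was the highest of all 12, and the other 5 lay below every control. The log2 difference was -0.22 (SE 0.09, edgeR adjusted p = 0.945, exact permutation p = 0.0736), and without that library -0.33 (SE 0.07, edgeR adjusted p = 0.492). Because the other 5 lay below every control, the exact permutation p without it could only be the smallest possible, 0.00216. Over the 12 libraries left out in turn, the exact permutation p ran from 0.00216 to 0.152, the highest without R47H_induced replicate 2.

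Gpr34 (chromosome X, 13632089 to 13640858, within Cask) ran from 10.2 to 12.2 CPM in R47H_control (median 10.5) and from 5.85 to 11.5 CPM in R47H_induced (median 7.88), and 5 of 6 induced libraries were below every control library. The log2 difference was -0.36 (SE 0.13, edgeR adjusted p = 0.945, exact permutation p = 0.0346). Left out in turn, R47H_control replicate 4 and R47H_induced replicates 4, 5 and 6 each took the exact permutation p above 0.05, to at most 0.0649.

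Cx3cr1 (chromosome 9, 119901616 to 120068283, minus strand) was the only member whose R47H groups did not overlap, which held for 0.34% of all genes. It ran from 19.14 to 21.05 CPM in R47H_control (median 20.5) and from 16.21 to 18.50 in R47H_induced (median 17.3). The log2 difference was -0.22 (SE 0.07, 95% interval -0.36 to -0.07, edgeR adjusted p = 0.945), and the exact permutation p was 0.00216, the smallest the design allows. It stayed at that p whichever of the 12 libraries was left out. With the rRNA-like share as covariate the log2 difference was -0.13 (SE 0.07), and that share was lower in the induced group. The same covariate moved Siglech from -0.18 to -0.10, Tmem119 from -0.14 to -0.05, Csf1r from -0.09 to -0.04 and Olfml3 from 0.13 to 0.47.

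Siglech (chromosome 7, 55768178 to 55778925) ran from 10.5 to 12.7 CPM in R47H_control (median 11.3) and from 9.11 to 10.9 CPM in R47H_induced (median 9.98). The groups overlapped in 1 induced library, and the log2 difference was -0.18 (SE 0.12, edgeR p = 0.146 before adjustment, exact permutation p = 0.0108). The remaining receptor, Csf1r, ran from 73.2 to 84.8 CPM in R47H_control (median 80.3) and from 69.3 to 79.8 in R47H_induced (median 76.0), so the groups overlapped. Its log2 difference was -0.09 (95% interval -0.22 to 0.03). In the GENCODE vM21 annotation 15.1% of its exonic bases are overlapped by Hmgxb3 on the opposite strand, and the library kit does not mark strand.

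The intervals of the remaining markers included 0 in R47H mice. Tmem119 (chromosome 5, 113793729 to 113800516) was at -0.14 (95% interval -0.36 to 0.09) and its neighbour Selplg (113817798 to 113830501) at -0.14 (95% interval -0.35 to 0.07). Olfml3 (chromosome 3, 103733700 to 103738001) was at 0.13 with a 95% interval from -0.46 to 0.72. It ran from 2.44 to 11.5 CPM in R47H_control, and without R47H_control replicate 4, the library at 2.44 CPM, its difference was -0.05.

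**Figure D2:**
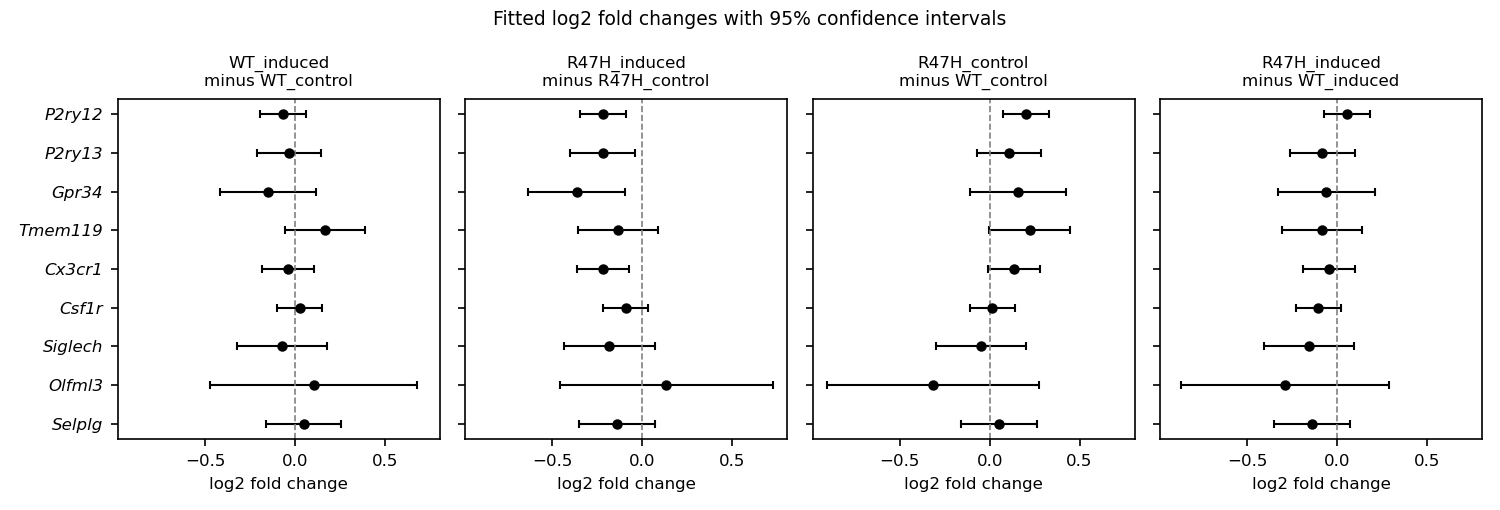
Log2 fold changes (x axis) of the 9 genes in 4 pairwise comparisons, as points with 95% confidence intervals from the edgeR fit, with a dashed line at 0. For induction in R47H mice the intervals of P2ry12, P2ry13, Gpr34 and Cx3cr1 lie below 0, and for R47H_control against WT_control that of P2ry12 lies above 0.

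In WT mice the 9 genes showed no common direction on induction. Of the 9, 4 had positive and 5 negative log2 differences, with a median of -0.03 against 0.00 for all genes. None had an unadjusted p below 0.05 in edgeR, against 7.85% of all genes, or in the exact tests, and no member's groups failed to overlap, against 0.234% of all genes. Cx3cr1 ran from 17.4 to 20.4 CPM in WT_control (median 18.2) and from 15.6 to 23.6 in WT_induced (median 16.8), with 4 induced libraries below all controls and replicate 6 above all of them. Its log2 difference was -0.04 (95% interval -0.18 to 0.11). P2ry12 ran from 27.3 to 32.2 CPM in WT_control (median 30.7) and from 26.8 to 32.3 in WT_induced (median 28.5), a log2 difference of -0.07 (95% interval -0.20 to 0.06).

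The direction depended on WT_induced replicate 6. Without it 8 of the 9 genes were lower in induced than in control WT cortex, Tmem119 being at 0.02, and the median was -0.09. Siglech was then at -0.25 (SE 0.08, edgeR adjusted p = 0.722) and Cx3cr1 at -0.13 (SE 0.05, edgeR adjusted p = 0.783), and 0 genes were called. At an unadjusted p below 0.05 edgeR then found 2 of the 9, against 0 with all libraries. The share of all genes in that fit is not given here. With all libraries Siglech ran from 9.95 to 13.7 CPM in WT_control and from 9.25 to 17.5 in WT_induced, where the second highest library was at 11.2. Tmem119 ran from 13.4 to 24.1 CPM in WT_induced (median 14.2), against 13.1 to 15.8 in WT_control (median 14.2). Whether immune cells or RNA from outside the brain contribute to replicate 6 was not tested.

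**Figure D3:**
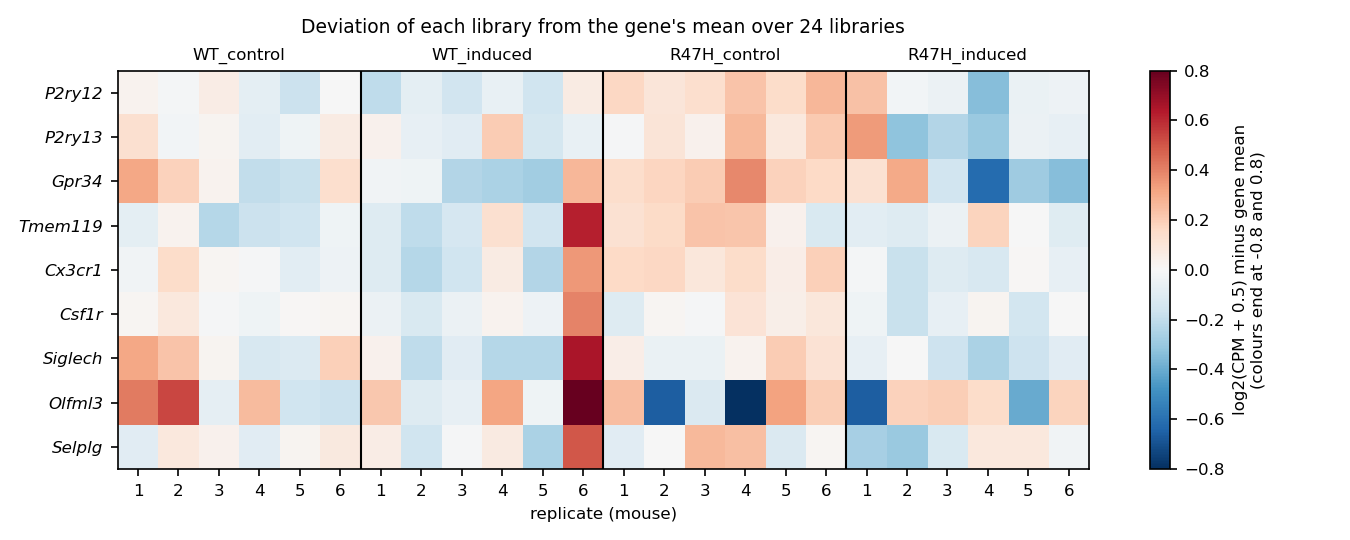
Deviation of each library (columns, by group and replicate) from each gene's mean over 24 libraries (rows), in log2(CPM + 0.5), with the colour range ending at -0.8 and 0.8. WT_induced replicate 6 is high in most genes, and P2ry12 is above its mean in all 6 R47H_control libraries.

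The inductions of the lines were compared directly. The difference, R47H induction minus WT induction, was negative for 8 of 9 genes with a median of -0.18, and 0 genes had an unadjusted p below 0.05, against 7.94% of all genes. The lowest p were those of Tmem119 (-0.30, SE 0.15, edgeR adjusted p = 0.639), Cx3cr1 (-0.18, SE 0.10, edgeR adjusted p = 0.670) and P2ry12 (-0.15, 95% interval -0.33 to 0.03). Without WT_induced replicate 6 the median was -0.09, with 7 of 9 negative. A difference between the lines in the response of these genes was not detected at this number of mice.

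Without tamoxifen, P2ry12 was higher in R47H than in WT cortex. It ran from 27.31 to 32.20 CPM in WT_control and from 33.03 to 37.27 CPM in R47H_control, so the groups did not overlap, as for 3.18% of all genes. The log2 difference was 0.20 (SE 0.06, 95% interval 0.08 to 0.33), with an edgeR adjusted p of 0.0513, just above the threshold, and an exact permutation p of 0.00216, the smallest possible. It passed in DESeq2 (adjusted p = 0.0314), in edgeR on the 12 libraries compared (0.00962) and in edgeR with WT_induced replicate 6 (adjusted p = 0.0398), R47H_induced replicate 1 (0.0181), R47H_induced replicate 4 (0.0184) or WT_control replicate 3 (0.0462) left out. With the rRNA-like share as covariate, which was higher in R47H_control, the value was also 0.20 (SE 0.08, edgeR adjusted p = 0.198). With library totals as scaling P2ry12 was at 0.14 (SE 0.07, edgeR adjusted p = 0.202). Leaving out each library in turn, its edgeR adjusted p ran from 0.0181 to 0.108.

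Of the other genes, Tmem119 ran from 13.1 to 15.8 CPM in WT_control (median 14.2) and from 14.2 to 18.2 in R47H_control (median 17.1), with 5 of 6 R47H libraries above every WT library. Its log2 difference was 0.22 (SE 0.11, edgeR adjusted p = 0.250, exact permutation p = 0.0130), and it passed in the 12 libraries compared (edgeR adjusted p = 0.0429) and without WT_induced replicate 6 (0.0407). Cx3cr1 was at 0.14 (SE 0.07, edgeR adjusted p = 0.281, exact permutation p = 0.0108). With the rRNA-like share as covariate Tmem119 was at 0.10 and Cx3cr1 at 0.01. In all, 7 of 9 genes were positive, Siglech and Olfml3 being negative, and the median was 0.11. At an unadjusted p below 0.05 edgeR gave 1 of 9, P2ry12, against 20.5% of all genes. The count was 3 without WT_induced replicate 6 or WT_control replicate 2 and in the 12 libraries compared, and 2 without R47H_control replicate 6, R47H_induced replicate 4 or WT_induced replicate 2 or 5. In the 12 libraries compared, 3991 of 18939 genes had an unadjusted p below 0.05. All 6 choroid plexus markers, which mark tissue next to the cortex, had positive log2 differences in this comparison (median 0.83, 0 called). They summed to 15.7 to 381 CPM in WT_control and to 32.1 to 547 in R47H_control, 0 of the 6 were at 0 in all libraries, and their part in the values of P2ry12, Tmem119 and Cx3cr1 was not tested. R47H_control is also the reference for induction in R47H mice, so these comparisons share 6 libraries and are not independent.

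After tamoxifen the order of the lines was different for most of the genes, none beyond the spread of the libraries. Of the 9, 8 were lower in R47H_induced than in WT_induced and P2ry12 was at 0.05 (SE 0.06), with a median of -0.08. None had an unadjusted p below 0.05, against 20.1% of all genes, and none had groups that did not overlap, against 3.25%. Without WT_induced replicate 6, 5 were positive and 4 negative, with a median of 0.02. The 6 choroid plexus markers were again all positive (median 0.70, 0 called).

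Averaged over the lines, 7 of 9 genes were lower after induction (median -0.13), and 3 had an unadjusted p below 0.05, against 4.64% of all genes. These were P2ry12 (-0.14, SE 0.04), Cx3cr1 (-0.13, SE 0.05) and Gpr34 (-0.26, SE 0.09), each with an edgeR adjusted p of 0.995. With WT_induced replicate 6 left out, 8 of 9 were negative and 5 had an unadjusted p below 0.05, with no share of all genes given for that fit. Averaged over treatments, the line difference had an unadjusted p below 0.05 for 1 gene, P2ry12 (0.13, SE 0.04, edgeR adjusted p = 0.0520), against 27.2% of all genes. It was 3 genes without WT_induced replicate 6, of which edgeR called 2, P2ry12 and Tmem119, again with no share of all genes given.

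Each of the other 8 genes was correlated with P2ry12 between mice of the same group. On log2 CPM with group means removed, P2ry12 passed the test over 24 libraries with Gpr34 (Pearson r = 0.70, permutation p = 0.00387, adjusted over 8 genes 0.0224; Spearman rho = 0.63, permutation p = 0.00252) and with Siglech (r = 0.48, permutation p = 0.00559, adjusted 0.0224; rho = 0.50, permutation p = 0.0198). Cx3cr1 gave r = 0.47 (permutation p = 0.0101, adjusted 0.0271; rho = 0.51, permutation p = 0.0202). P2ry13 gave r = 0.64 (permutation p = 0.0201, adjusted 0.0403; rho = 0.53, permutation p = 0.0119). Without the 2 libraries farthest from the P2ry12 median, R47H_induced replicates 4 and 1, r was 0.55 for Gpr34, 0.60 for Siglech and 0.59 for Cx3cr1, and 0.29 for P2ry13, whose relation rests on those libraries. The adjusted permutation p of Gpr34, Siglech and Cx3cr1 was above 0.05 when WT_control replicate 5 or WT_induced replicate 6 was left out, and that of Cx3cr1 without R47H_induced replicate 1 or WT_induced replicate 5, with highest values of 0.0807, 0.161 and 0.184 in that order. That of P2ry13 was above 0.05 for 10 of the 24 libraries left out in turn. Csf1r (r = 0.27, rho = 0.34), Tmem119 (0.07 and 0.07), Selplg (-0.02 and 0.07) and Olfml3 (-0.06 and 0.13) did not pass, with adjusted permutation p from 0.340 to 0.944 for r and from 0.188 to 0.775 for rho. Without the same 2 libraries their r was 0.56 for Csf1r, 0.43 for Tmem119, 0.39 for Selplg and 0.23 for Olfml3, and Csf1r passed without R47H_induced replicate 4 alone (adjusted permutation p = 0.0343).

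A further group, Tmem119, Csf1r, Selplg and Cx3cr1, gave pairwise Pearson r between 0.68 and 0.79 over all 24 libraries. The group was picked from these same values, and Siglech was also at 0.68 with Csf1r. These values depended on WT_induced replicate 6. Without it Tmem119 and Selplg were at 0.60, Cx3cr1 and Csf1r at 0.35 and Tmem119 and Csf1r at 0.33, while P2ry12 was at 0.71 with P2ry13 and at 0.65 with Gpr34, against 0.64 and 0.70 with it. P2ry12 went from 0.48 to 0.37 with Siglech and from 0.47 to 0.35 with Cx3cr1. Gpr34 and Siglech went from 0.68 to 0.65. These values are descriptions over libraries that share their scaling.

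**Figure D4:**
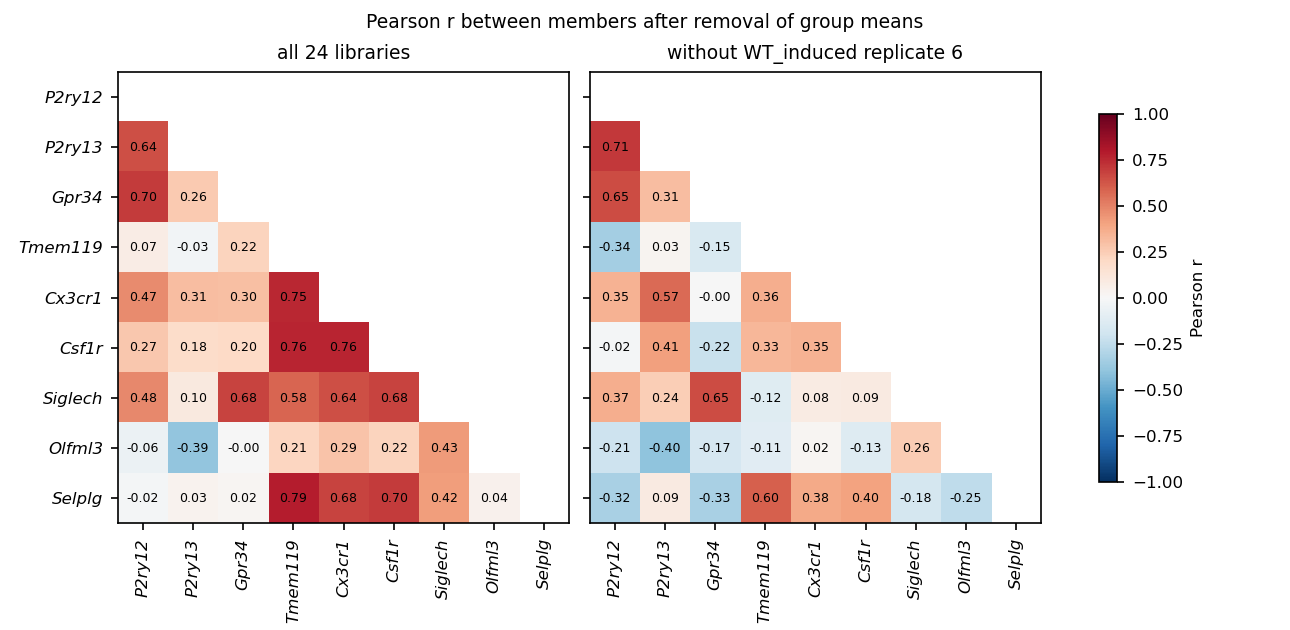
Pearson r between each pair of the 9 genes on group-centred log2(CPM + 0.5), over all 24 libraries (left) and without WT_induced replicate 6 (right), coloured from -1 to 1. Tmem119 and Csf1r go from 0.76 to 0.33, and P2ry12 and P2ry13 from 0.64 to 0.71.

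The genes most like the mean of the 9 were ranked by Pearson r over 24 libraries with group means removed, among 15775 genes of at least 1 CPM. The first 10 included Isg15 (r = 0.92), Cd53 (0.92), Bmp2k (0.90), Rnf213 (0.89), Irf8 (0.88), Clic1 (0.88), Parp9 (0.88) and C1ra (0.87). Isg15, Rnf213 and Parp9 are known interferon-response genes, and Cd53 and Irf8 are expressed by microglia and other leukocytes. The ranking depended on WT_induced replicate 6. Without it the first 10 were Gm2420 (0.81), Syne2 (0.76), Isg15 (0.75), Kmt2c (0.75), Dpysl5 (0.75), Rnase4 (0.75), Atf4 (0.74), Lrrc23 (0.72), Cd53 (0.72) and Bmp2k (0.71). Rnf213 was then at rank 25, Clic1 at 32, Parp9 at 84, Irf8 at 135 and C1ra at 308.

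Of 25 other genes of the homeostatic state, 0 were called for induction in either line. In R47H mice 9 were positive and 16 negative (median -0.06), and in WT mice 17 positive and 8 negative (median 0.03), or 7 and 18 without WT_induced replicate 6. The lowest p in R47H mice was that of Slco2b1, an organic anion transporter (-0.20, SE 0.07, edgeR adjusted p = 0.945), followed by Vsir, an immune checkpoint receptor (-0.12, SE 0.06). In WT mice they were Pmepa1, a TGF-beta target (0.13, SE 0.04), and Slco2b1 (0.19, SE 0.07). For R47H_induced against WT_induced 2 of 25 were called, both lower, against 5.8% of all genes. They were Slco2b1 (-0.32, SE 0.07, edgeR adjusted p = 0.00696) and the sialic acid-binding receptor Cd33 (-0.51, SE 0.15, edgeR adjusted p = 0.0417). For R47H_control against WT_control 0 were called, and the lowest p were those of the transcription factor Sall1 (0.18, SE 0.07) and Pmepa1 (0.09, SE 0.04). When WT_induced replicate 6 was left out, edgeR called 1 of the 25 in this comparison and 2 for R47H_induced against WT_induced.

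Ligands and regulators of these genes were measured beside them. Of 7 ligands 4 could be tested and 0 were called in any comparison. In R47H mice the lowest p were those of Tgfb1 (-0.15, SE 0.11) and of Cx3cl1, which encodes fractalkine, the ligand of CX3CR1 (0.05, SE 0.05), and in WT mice those of Csf1 (0.17, SE 0.07) and Tgfb1 (0.15, SE 0.10). Of 12 regulators 0 were called in the pairwise comparisons, and without WT_induced replicate 6 edgeR called 1 in each pairwise comparison of the lines. On induction in R47H mice 7 of the 12 were positive and 5 negative, with 1 in each direction at an unadjusted p below 0.05 (5.11% of all genes). Among them the transcription factor Runx1 was at -0.53 (SE 0.19). For R47H_control against WT_control 8 were positive and 4 negative, and Mef2c, a further transcription factor, was at -0.11 (SE 0.04). Averaged over treatments, 4 were positive and 8 negative. Only Cebpa, a myeloid transcription factor, was called there, higher in R47H (0.23, SE 0.07, edgeR adjusted p = 0.0228), against 13.8% of all genes called.

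General microglial markers were mostly positive on induction in WT mice, 17 of 18 (median 0.30), with 0 called. At an unadjusted p below 0.05 were 8, against 7.85% of all genes, led by Dock2 (0.50, SE 0.19) and the complement gene C1qa (0.46, SE 0.17). Without WT_induced replicate 6, 11 were positive and 7 negative, with a median of 0.04, and 1 had an unadjusted p below 0.05. In R47H mice 15 of 18 were negative (median -0.06), with Ly86 at -0.39 (SE 0.19) and 0 called. For R47H_induced against WT_induced all 18 were negative and 1 was called, against 5.8% of all genes. It was Ly86, a partner of a Toll-like receptor homologue (-0.65, SE 0.18, edgeR adjusted p = 0.0372). Without WT_induced replicate 6, 7 were positive and 11 negative (median -0.02), and edgeR called 0, with 4 at an unadjusted p below 0.05.

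Of 14 tested genes of disease-associated microglia, 0 were called for either induction. In R47H_control against WT_control 8 were positive and 6 negative. In edgeR 3 of the positive and 2 of the negative ones had an unadjusted p below 0.05, against 20.5% of all genes in either direction. Called there were 2, both higher, against 5.74% of all genes. They were the growth factor gene Igf1 (0.38, SE 0.09, edgeR adjusted p = 0.0108) and the lipid carrier gene Apoe (0.26, SE 0.06, edgeR adjusted p = 0.0126). P2ry12 and the choroid plexus markers also had positive differences in this comparison. Apoe had a mean of 812 CPM in WT_control, against 16.03 for the microglial marker C1qa. Which cells the Apoe counts come from was not tested. Other genes of the list had lower means in R47H_control than in WT_control, without being called. Among them, Lpl was at 24.02 CPM (SD 6.23) against 33.80 (SD 1.06), and Ctsb at 439 (SD 9.92) against 465 (SD 8.83). Averaged over treatments, 2 of the 14 were called higher and 2 lower in R47H, against 13.8% of all genes called. Of 11 border-associated macrophage markers, which share Csf1r and Cx3cr1 with microglia, 10 were negative on induction in R47H mice (median -0.20). The scavenger receptor gene Stab1 had the lowest p there (-0.32, SE 0.08, edgeR adjusted p = 0.668), and 0 were called. The sum of these markers was 28.1 to 33.0 CPM in R47H_control and 23.8 to 28.6 in R47H_induced, and 0 of the 11 were at 0 in all libraries. Stab1 weighed most in that sum, with group means of 13.4 and 10.7 CPM, while Mrc1 was at 5.81 and 5.72. Stab1 was also lower on induction in WT mice, at 14.2 and 11.5 CPM. There 7 of the 11 markers were negative (median -0.02), or 4 without WT_induced replicate 6 (median 0.05). The part of these markers in the lower Cx3cr1 and Csf1r values was not tested.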

How the data were processed

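Cortex libraries of 24 mice were grouped by their genotype and treatment labels. Per the labels' protocols, poly-A RNA was prepared with a TruSeq v2 kit, which does not mark strand. The authors deposited raw read counts per gene, and STAR 2.5.2b, featureCounts 1.5.1 and mm10 are named in the submitters' processing notes. The sources used here do not give the annotation release or the strand setting, so overlapping genes cannot be told apart.

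Counts were scaled by TMM, filtered with filterByExpr and fitted over all 24 libraries by the robust quasi-likelihood F-test of edgeR 4.0.16 (R 4.3.3), with Benjamini-Hochberg adjustment over 19678 genes. CPM are relative to TMM-scaled totals. Exact permutation tests and correlations used log2(CPM + 0.5), and the correlations 100000 permutations within groups. Alternatives were RLE size factors, library totals, other filters, DESeq2 1.42.0, limma-voom (limma 3.58.1), fits on the 12 libraries compared, covariates for the rRNA-like share, Xist and pan-microglial level, removal of the rRNA-like genes, a pseudocount of 2, leaving out each library and calling at 0.1. The procedure was tested on simulated data.

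The 60 pairs of libraries within groups differed beyond sampling noise (chi-square per degree of freedom 4.31 to 61.7), so each counted as 1 replicate. The genes and lists were chosen with earlier results of these data known. Named list genes were all called ones and examples from the 2 with the lowest p per list and comparison, and the 10 most like the members; some of these genes are not reported here. The ratios to the pan-microglial level were chosen after seeing the data.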

Additional observations from a re-analysis of the deposited data

Results flagged for a closer look

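Single libraries stood far from the other 5 of their group in 8 of 36 combinations of gene and group, by Dixon's test (the gap to the nearest library over the whole range, against its 95% critical value for 6 libraries). Chance alone flags about 1 in 20 such groups, and the 9 genes share libraries, so the combinations are not independent. In WT_induced, replicate 6 was the high library for Tmem119 (24.1 CPM), Csf1r (103 CPM), Siglech (17.5 CPM), Olfml3 (17.8 CPM) and Selplg (22.7 CPM). In R47H_induced, replicate 1 was high for P2ry13 (11.5 CPM) and replicate 4 for Tmem119 (17.6 CPM). In R47H_control, replicate 4 was high for Gpr34 (12.2 CPM).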

How the results depend on the processing

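In the comparisons of induction, of its difference, of its average and of the induced lines, 0 of the 9 genes were called under every alternative run. For R47H_control against WT_control the main count of 0 became 1 (P2ry12) with a filter of 1 CPM in 6 libraries, with DESeq2, with the rRNA-like genes removed and at a threshold of 0.1. It became 2 (P2ry12 and Tmem119) in the 12 libraries compared, and 0 to 2 with 1 library left out. For the lines averaged over treatments it was 1 with DESeq2 and at a threshold of 0.1, 2 with the pan-microglial level as covariate and 0 to 2 with 1 library left out. With library totals as scaling, exact permutation tests lost P2ry12 (p = 0.0693) and Gpr34 (0.0541) for induction in R47H mice, and Tmem119 (0.0801) and Cx3cr1 (0.0584) for the lines without tamoxifen. Over all genes, the call counts of 0 became 10 (induction in WT mice), 4 (in R47H mice), 3 (their difference) and 4 (averaged) with DESeq2. They became 1 for induction in R47H mice in the 12 libraries compared, and 1 for the averaged induction with the pan-microglial level as covariate. For the lines without tamoxifen 1129 became 451 with the rRNA-like share as covariate. Without WT_induced replicate 6 the median log2 difference of the 9 genes went from -0.03 to -0.09 for induction in WT mice, from -0.18 to -0.09 for the difference of inductions and from -0.08 to 0.02 for the lines after tamoxifen. No paired analysis was possible because replicate numbers were given in accession order and pair no mice.

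Only uncalled differences changed sign, and the cause was not tested. With library totals, Csf1r was at -0.018 for induction in WT mice, and Csf1r (-0.045) and Selplg (-0.0038) changed sign for the lines without tamoxifen. In the differences of mean log2 CPM the same scaling gave Csf1r -0.024 and Selplg -0.0100 for induction in WT mice. It gave Csf1r -0.046 and Selplg -0.013 for the lines without tamoxifen, Cx3cr1 0.0028 for the lines after tamoxifen, and r = 0.051 for Selplg with P2ry12. With the rRNA-like share as covariate, Csf1r (-0.018) and Olfml3 (-0.15) changed sign for induction in WT mice, Siglech (0.047) for the difference of inductions and Csf1r (-0.057) for the lines without tamoxifen. With the pan-microglial level as covariate, Tmem119 (-0.011), Csf1r (-0.065), Olfml3 (-0.13) and Selplg (-0.090) did so for induction in WT mice. Under that covariate the difference of inductions was 0.0026 for Csf1r and 0.14 for Siglech, and Csf1r was at -0.0073 for the lines without tamoxifen. The lines after tamoxifen then differed by 0.038 for Gpr34, 0.11 for Tmem119, 0.073 for Cx3cr1, 0.049 for Siglech and 0.013 for Selplg.

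With 1 library left out, log2 fold changes that changed sign ranged as follows. For induction in WT mice they were Cx3cr1 (-0.13 to 0.00081), Csf1r (-0.058 to 0.057), Olfml3 (-0.090 to 0.20) and Selplg (-0.063 to 0.11). For induction in R47H mice it was Olfml3 (-0.053 to 0.26), and for the difference of inductions Siglech (-0.16 to 0.065) and Olfml3 (-0.16 to 0.22). For the lines without tamoxifen they were Csf1r (-0.0031 to 0.040) and Siglech (-0.088 to 0.0032). For the lines after tamoxifen they were P2ry12 (-0.0078 to 0.11), Gpr34 (-0.17 to 0.030), Tmem119 (-0.13 to 0.069), Cx3cr1 (-0.085 to 0.049) and Siglech (-0.21 to 0.018). For the averaged induction it was Tmem119 (-0.059 to 0.041), and for the averaged lines P2ry13 (-0.038 to 0.037), Gpr34 (-0.0081 to 0.093) and Selplg (-0.071 to 0.014). Over the other alternatives the averaged values that changed sign were Tmem119 (-0.045 to 0.019) for induction, and P2ry13 (-0.0065 to 0.017) and Selplg (-0.058 to 0.016) for the lines. The differences of mean log2 CPM ranged likewise for induction in WT mice in Csf1r (-0.058 to 0.045), Olfml3 (-0.066 to 0.16) and Selplg (-0.065 to 0.086), and in R47H mice in Olfml3 (-0.057 to 0.35). For the lines without tamoxifen they did so in Csf1r (-0.0040 to 0.038) and Siglech (-0.079 to 0.0089). After tamoxifen they did so in P2ry12 (-0.0061 to 0.11), Gpr34 (-0.16 to 0.026), Tmem119 (-0.099 to 0.066), Cx3cr1 (-0.065 to 0.051) and Siglech (-0.16 to 0.019). Correlations with P2ry12 ranged in Tmem119 (-0.34 to 0.33), Csf1r (-0.020 to 0.52), Olfml3 (-0.21 to 0.15) and Selplg (-0.32 to 0.18).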

Other observations

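Relative to the mean log2 level of the 18 pan-microglial markers, a comparison chosen after seeing the data, all 9 homeostatic genes were lower in WT_induced than in WT_control, with all libraries and without WT_induced replicate 6. The 9 ratios share the same denominator, so their common direction is not 9 separate results. Of its 18 markers 17 were positive on induction in WT mice, or 11 without replicate 6. By two-sided exact permutation tests, not adjusted over the 9, the differences had a p below 0.05 for 6 genes. These were P2ry12, Gpr34, Cx3cr1, Csf1r, Siglech and Selplg. The ratios were tested for the 9 genes only, so no share of all genes stands beside this count. The difference in log2 ratio was -0.26 for Cx3cr1 (exact permutation p = 0.00649) and -0.31 for Siglech (exact permutation p = 0.00866). Without replicate 6 it was -0.16 for Cx3cr1 (exact permutation p = 0.0152), -0.26 for Siglech (0.0238), -0.09 for Csf1r (0.0325) and -0.24 for Gpr34 (0.0498), while P2ry12 (0.0649) and Selplg (0.0844) no longer had a p below 0.05. In R47H mice the same ratio differed on induction by -0.13 for Cx3cr1 (exact permutation p = 0.0390), the only member with a p below 0.05. It differed by -0.14 for P2ry12 (exact permutation p = 0.219), -0.05 for Tmem119 (0.444) and -0.01 for Csf1r (0.890). Olfml3 went the other way, at 0.31 (exact permutation p = 0.463).

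Choroid plexus markers varied widely within all groups, from 15.7 to 623 CPM in sum. Averaged over treatments, all 6 had positive log2 differences between R47H and WT mice (median 0.74). At an unadjusted p below 0.05 were 3, against 27.2% of all genes, and edgeR called 0, against 13.8%.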
